A study of Mus musculus with 4 samples.

Results

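Members of the activator protein 1 (AP-1) transcription factor family and the repressor JDP2 were followed in the mouse macrophage line RAW264.7, grown either by itself (mock) or in coculture with the mouse colon carcinoma line CT26. The 10 genes are Fos, Fosb, Fosl1, Fosl2, Jun, Junb, Jund, Jdp2, Atf3 and Batf, chosen by symbol from the 22554 names found once in each deposited table. The series holds 2 mock and 2 coculture libraries, with replicate 1 of each group in 1 table (pair 1) and replicate 2 in the other (pair 2). Per the labels' protocols the macrophages were kept in DMEM and the carcinoma cells in RPMI1640. The sources used here do not say how long the coculture lasted or how the macrophages were recovered.

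AP-1 proteins are basic leucine zipper (bZIP) factors that bind DNA as dimers. JUN proteins pair with themselves or with FOS proteins, and FOS proteins need a JUN partner. MAP kinases raise the transcription of several of these genes and phosphorylate their products, and in macrophages AP-1 acts with NF-kappaB on cytokine, chemokine and protease genes. JDP2 (JUN dimerization protein) pairs with JUN proteins or itself, is mainly known as a repressor at AP-1 and cyclic AMP response element sites, and takes part in osteoclast formation from macrophage precursors.

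FPKM are fragments per kilobase of a gene's length after scaling for library size, and may be set side by side between genes of a library. Differences are coculture minus mock within a pair on the log2(FPKM + 1) scale. Tests are from limma over the 10202 genes that reached 1 FPKM in 2 or more libraries, with the pair as a block and Benjamini-Hochberg adjustment over all of them. Values given by library run from replicate 1 to replicate 2 within a group. Statements on whether the groups overlap set levels of the 2 deposited tables side by side, and these may be normalized differently. Such statements are descriptions and were not tested. Values after ± are limma's moderated standard errors, n = 2 pairs. Libraries held an estimated 12200000 to 16200000 reads. Of 10 macrophage markers, 9 passed the filter, Mrc1 being the exception, and the summed level of the list was 9377 and 5466 FPKM in the mock libraries, and 9877 and 12828 FPKM beside CT26 cells. Cd14 carried the higher sum of pair 1, and Lyz2 and Cd14 together that of pair 2. Cd14 stood at 607 FPKM in mock 1 against 1732 FPKM in coculture 1, and at 354 FPKM in mock 2 against 1149 FPKM in coculture 2. Lyz2 differed in opposite directions: it was lower in coculture 1 (6585 FPKM) than in mock 1 (7088 FPKM). Within pair 2 Lyz2 was higher, with 3529 FPKM in mock 2 and 10287 FPKM in coculture 2. The other 8 genes summed to 1682 and 1583 FPKM in the mock libraries, and 1561 and 1392 FPKM beside CT26 cells. Of the 9 tested, 3 were higher and 3 lower in both pairs and 3 of opposite sign (median 0.06). Of 11 carcinoma and epithelial markers, 0 passed, and Epcam, Krt18, Krt20, Cldn3, Cldn4 and Cdx2 were listed at 0 in every library. The epithelial sum was 0.143 and 0 FPKM in the mock libraries, and 0.167 and 0.045 FPKM beside CT26 cells. Of 10 mesenchymal markers only Tagln passed, and the list's sum was 2.64 and 1.71 FPKM in the mock libraries, and 2.03 and 1.40 FPKM beside CT26 cells. Of 6 lymphoid markers 0 passed, with sums of at most 0.174 FPKM. Of 5 granulocyte markers only S100a8 passed; the sum was 1.33 and 0.162 FPKM in the mock libraries, and 2.20 and 2.59 FPKM beside CT26 cells, Ly6g, S100a9 and Mpo were listed at 0, and the part of these cells in the results was not tested.

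Of the 10 genes, 8 passed the filter, each with more than 1 FPKM in all 4 libraries. Jdp2 rose in coculture and was the only member to pass the test over all genes. Junb, Fosl1, Fosl2 and Jund also stood higher in coculture in both pairs without passing, Atf3 and Jun stood lower in both, and Fos went in opposite directions. Over all tested genes 21.5% were higher in both pairs (5 of 8 members), 42.2% lower in both (2 members) and 36.4% of opposite sign (1 member). The share of all tested genes called higher was 0.127% (13 genes), against 1 of 8 members. The share called lower was 0% (0 genes, or 964 at an unadjusted p under 0.05 in limma), against 0 members. After median centring of each library the calls over all genes were 85 higher and 18 lower, with Jdp2 still the 1 member called. At an unadjusted p under 0.05, 5 members were higher (Jdp2, Junb, Fosl1, Fosl2 and Jund), against 5.26% of all tested genes, and Atf3 was lower, against 9.45%. The median difference of the 8 members was 0.69, or 0.51 in pair 1 and 0.60 in pair 2, or 0.29 with the 2 below the filter included, against -0.07 for all tested genes. The labels do not say that replicates came from separate cultures, so the p-values reflect the spread of these libraries alone, possibly a technical one. In bulk RNA, fewer cells with a transcript and less of it per cell cannot be told apart.

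**Figure D1:**
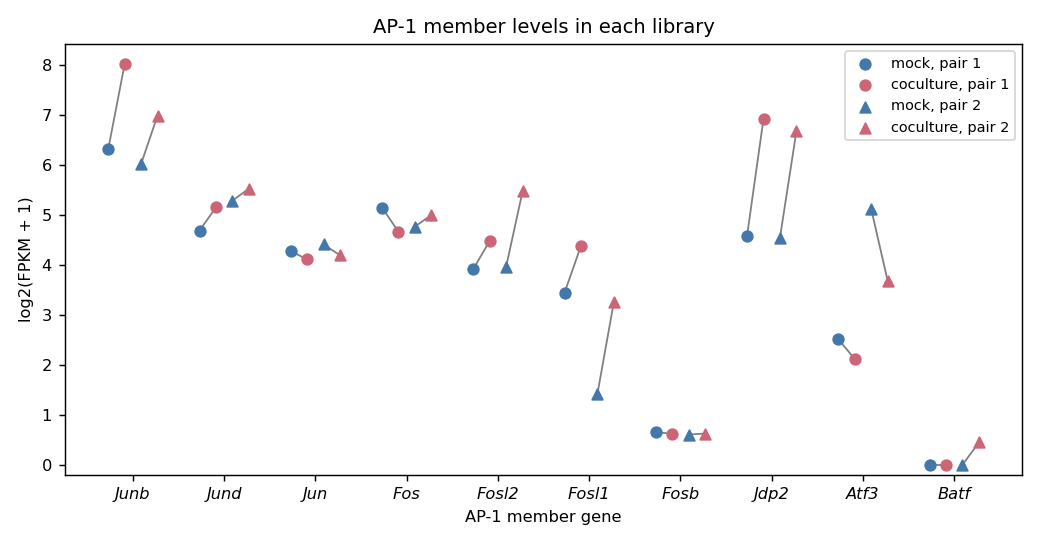
Level of each of the 10 genes on the log2(FPKM + 1) scale in the 4 libraries (circles, pair 1; triangles, pair 2; blue, mock; red, coculture), with a grey line joining the libraries of a pair. The Jdp2 lines climb by 2.33 and 2.12, while the Fos lines go in opposite directions and the Fosb and Batf points stay under 1 FPKM.

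Jdp2 had 23.0 FPKM in mock 1, 22.2 FPKM in mock 2, 119.8 FPKM in coculture 1 and 100.4 FPKM in coculture 2. The mock libraries were close to each other, the coculture libraries too, and the groups did not overlap. The ratio of FPKM was 5.22 in pair 1 and 4.51 in pair 2. The log2 difference was 2.23 ± 0.12 (limma adjusted p = 0.0338), from 2.33 in pair 1 and 2.12 in pair 2. It was the only member at least 2-fold higher in both pairs, which 1.02% of all tested genes were; none was 2-fold lower in both pairs, as 0.353% of all genes were. By p-value it ranked 7 and by size of rise 37 of 10202. Exons of Gm47863, on the opposite strand, overlap those of Jdp2 in GENCODE M21. Whether reads were counted by strand is not said in the sources used here. The size of the Jdp2 difference ranged from 2.10 to 2.36 without any single library, unblocked, and from 2.20 to 2.30 over the other alternatives. Of these, the filter, the block and the variance trend cannot move it. The call was lost without the pair block (limma adjusted p = 0.277), without trended variance (0.0925) and with no filter on low values (0.736). It was also lost without any single library, unblocked.

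RefSeq gives 3 starts of Jdp2 on the plus strand (build GRCm38.p6). The stretches before the second and the third start that no GENCODE M21 exon covers are printed because Jdp2 is the member that rose. Capitals mark TGACG, the half-site of a cyclic AMP response element, in the former and letters of an NF-kappaB site in the latter. The full element, TGACGTCA, was in 0 of the 11 windows of the members, and TGACG was in 17.8% of all windows. The former lies at chr12:85599228-85599415 and the latter at chr12:85599768-85600017.
Jdp2 before the second start: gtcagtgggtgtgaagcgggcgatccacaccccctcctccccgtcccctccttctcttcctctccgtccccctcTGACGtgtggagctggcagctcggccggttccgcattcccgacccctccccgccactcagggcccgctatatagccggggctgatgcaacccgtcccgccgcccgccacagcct
Jdp2 before the third start: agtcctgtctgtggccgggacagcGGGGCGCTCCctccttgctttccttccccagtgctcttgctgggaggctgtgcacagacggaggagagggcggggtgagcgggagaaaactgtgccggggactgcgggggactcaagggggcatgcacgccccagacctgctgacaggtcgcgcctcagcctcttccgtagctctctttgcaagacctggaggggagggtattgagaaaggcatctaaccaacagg
The TGACG begins 114 bases before the second start and the NF-kappaB site 226 bases before the third.

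By the distance of the pair 1 and pair 2 differences from those of Jdp2, the 5 nearest of 9514 genes averaging 2 FPKM or more were Bcl3, Ehd1, Pou2f2, Il1a and Nfkbia, at distances of 0.13 to 0.27. Bcl3, an atypical member of the inhibitor of NF-kappaB family, differed by 2.25 and 2.03 in the pairs. Ehd1, an endocytic recycling gene, differed by 2.34 and 2.28, the transcription factor gene Pou2f2 by 2.17 and 2.30, and Nfkbia, which encodes an inhibitor of NF-kappaB, by 2.52 and 1.92. Il1a, the interleukin-1 alpha gene, had 0.132 and 0.032 FPKM in the mock libraries, so its FPKM ratios of 42.1 and 124 were far from those of Jdp2, and it lies near Jdp2 only because of the pseudocount of 1. These genes were picked for their likeness over 4 libraries, so their values are a description with no test.

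Fos, Jdp2 and Batf are consecutive protein-coding genes in the RefSeq order of mouse genes, and of the 3 only Jdp2 rose. Batf, a bZIP factor of lymphoid and dendritic cells, was listed at 0 in both mock libraries and in coculture 1, and stood at 0.362 FPKM in coculture 2, an estimated 6.22 reads. It did not reach the filter and was not tested. On the Fos side of the cluster Nek9, a mitotic kinase gene, differed by -0.39 ± 0.17 (limma adjusted p = 0.384) and Tmed10, a gene of vesicle transport, by -0.35 ± 0.13 (0.344). Beyond Batf, Flvcr2 did not exceed 0.148 FPKM and Erg28, a sterol synthesis gene, differed by 0.02 ± 0.11 (limma adjusted p = 0.958). In this row of 7 genes, 5 were tested and only Jdp2 passed.

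JUN proteins are the partners that FOS proteins need for binding DNA. Junb, which encodes a JUN protein with weaker transactivation than c-JUN, was the most abundant of the 10 genes in every library. It had 78.3 FPKM in mock 1, 63.6 FPKM in mock 2, 257 FPKM in coculture 1 and 125 FPKM in coculture 2. Both coculture libraries lay above both mock libraries. On the log2 scale it differed by 1.33 ± 0.21 (limma adjusted p = 0.132; 95% interval 0.78 to 1.88 before any adjustment), with 1.70 in pair 1 and 0.97 in pair 2. Without coculture 1, unblocked, the Junb difference was 0.82. In GENCODE M21 exons of Junb overlap those of Prdx2, a peroxiredoxin gene on the opposite strand, and the sources used here do not say whether reads were counted by strand. Other genes on the opposite strand also overlap exons of Jun, Jund and Jdp2 (Junos, Gm11175 and Gm47863), and their levels were not analysed here. Prdx2 had 176 and 106 FPKM in the mock libraries, and 170 and 122 FPKM beside CT26 cells.

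Jun, which encodes c-JUN, had 18.3 and 20.2 FPKM in the mock libraries, and 16.2 and 17.2 FPKM beside CT26 cells. The coculture libraries lay just under the mock libraries. The log2 difference was -0.19 ± 0.13 (limma adjusted p = 0.533; 95% interval -0.53 to 0.15), or -0.12 without mock 2, unblocked. Jund, the JUN gene with the steadiest expression in many cells, had 24.6 and 37.8 FPKM in the mock libraries, and 34.4 and 44.8 FPKM beside CT26 cells. It was higher in coculture within each pair, but coculture 1 lay under mock 2, so the groups overlapped. On the log2 scale it differed by 0.35 ± 0.13 (limma adjusted p = 0.327). Unblocked, the Jund difference was 0.053 without mock 1, 0.17 without coculture 2, 0.54 without coculture 1 and 0.65 without mock 2. Within a library, the ratio of Junb to Jun FPKM went from 4.28 to 15.8 in pair 1 and from 3.15 to 7.27 in pair 2.

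The 250 bases before the RefSeq starts of Junb (chr8:84978749-84978998, minus strand) and Jun (chr4:95052223-95052472, minus strand) are shown to set a gene that was higher in both pairs beside a relative that was not. Both are from GRCm38.p6 and lie outside GENCODE M21 exons. Capitals mark TGACG in Junb and TGACATCA, an AP-1-like site of the Jun promoter, in Jun.
Junb: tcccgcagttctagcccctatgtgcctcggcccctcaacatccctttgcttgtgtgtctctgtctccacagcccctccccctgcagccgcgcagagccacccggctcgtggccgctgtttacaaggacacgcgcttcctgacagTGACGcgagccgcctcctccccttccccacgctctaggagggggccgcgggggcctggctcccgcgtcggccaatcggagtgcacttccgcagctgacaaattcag
Jun: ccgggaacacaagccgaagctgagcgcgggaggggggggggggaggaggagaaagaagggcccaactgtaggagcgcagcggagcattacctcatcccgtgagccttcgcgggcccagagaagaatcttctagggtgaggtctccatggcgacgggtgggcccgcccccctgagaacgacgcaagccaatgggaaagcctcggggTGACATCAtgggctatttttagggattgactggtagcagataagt
The Junb match begins 106 bases and the Jun match 45 bases before the start.

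Of the 4 FOS genes, the Fos-related antigen genes Fosl1 and Fosl2 stood higher in both pairs but missed the threshold, Fos did not stand higher, and Fosb was barely detected. Fosl1, which encodes FRA-1, had 9.85 FPKM in mock 1, 1.67 FPKM in mock 2, 19.8 FPKM in coculture 1 and 8.54 FPKM in coculture 2. It was higher within each pair, but coculture 2 lay under mock 1. The log2 difference was 1.39 ± 0.26 (limma adjusted p = 0.174; 95% interval 0.69 to 2.08), with 0.94 in pair 1 and 1.83 in pair 2. Unblocked, the Fosl1 difference was 0.37 without mock 2, 0.82 without coculture 1 and 2.40 without mock 1. Exons of Ccdc85b overlap those of Fosl1 on the opposite strand in GENCODE M21; Ccdc85b stood at 5.03 to 6.21 FPKM in the 4 libraries.

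Fosl2, which encodes FRA-2, had 14.1 and 14.6 FPKM in the mock libraries, and 21.2 and 43.2 FPKM beside CT26 cells. Both coculture libraries lay above both mock libraries, by more in pair 2. On the log2 scale it differed by 1.03 ± 0.25 (limma adjusted p = 0.232, 95% interval 0.35 to 1.71), with 0.56 in pair 1 and 1.504 in pair 2. Without coculture 2, unblocked, the Fosl2 difference was 0.54. Fos, the immediate early gene for c-FOS, had 34.3 and 26.1 FPKM in the mock libraries, and 24.2 and 30.8 FPKM beside CT26 cells. The groups overlapped, with a difference of -0.48 in pair 1 and 0.23 in pair 2. The mean was -0.13 ± 0.21 (limma adjusted p = 0.799; 95% interval -0.68 to 0.42). Fosb, another immediate early gene, had 0.569 and 0.521 FPKM in the mock libraries, and 0.539 and 0.541 FPKM beside CT26 cells, an estimated 41.3 to 54.5 reads, and was below the filter. Relative to Fos within a library, Fosl2 went from 0.410 to 0.876 in pair 1 and from 0.558 to 1.40 in pair 2.

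The bases before the Fos start (chr12:85473640-85473889, plus strand, GRCm38.p6, outside GENCODE M21 exons) are shown because Fos neighbours Jdp2 and its groups overlapped. Capitals mark an NF-kappaB site that begins 214 bases before the start and TGACG at 129 and 66 bases before it.
Fos: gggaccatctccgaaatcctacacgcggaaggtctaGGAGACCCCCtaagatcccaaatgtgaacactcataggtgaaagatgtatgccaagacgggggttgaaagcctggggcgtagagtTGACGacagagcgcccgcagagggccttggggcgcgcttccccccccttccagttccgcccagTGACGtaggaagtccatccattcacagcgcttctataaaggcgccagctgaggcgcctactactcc

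Promoter letters were searched on both strands in the 250 bases before each RefSeq start. Windows were found for 9 of the 10 genes, 11 windows in all, and the same was done for all 32851 windows; Fosl1 was not matched. The AP-1 site TGACTCA was in 0 of the 11, against 4.46% of all windows, and the full cyclic AMP response element TGACGTCA in 0, against 1.55%. The serum response element core, the CArG box, was in 0, against 1.47%. NF-kappaB sites were in 4 (Fos, Fosb, Fosl2 and Jdp2), against 7.25%. The half-site TGACG was added after the windows had been read and is part of every full TGACGTCA. It was in 6 (Atf3, Batf, Fos, Fosb, Jdp2 and Junb), against 17.8%. GENCODE M21 exons cover all 250 bases of the Fosl2 window and of the first Jdp2 window. Parts of the Fosb, second Jdp2, Atf3 and Batf windows also lie in exons. The Fosl2 NF-kappaB matches and the Atf3 TGACG thus lie in annotated exons. TGACATCA was in 1, that of Jun, against 2.93%. The 11 windows held 46.4 to 72.4% G and C, against a median of 52.4% over all windows. A match is a run of letters and not a measured binding site, and no match says only that these letters are not in this window.

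Atf3, a stress-induced bZIP gene whose protein dampens inflammatory transcription in macrophages, was lower in coculture within each pair. It had 4.68 FPKM in mock 1, 33.6 FPKM in mock 2, 3.34 FPKM in coculture 1 and 11.8 FPKM in coculture 2. The 2 mock libraries differed more from each other than the libraries of either pair did, and coculture 2 lay above mock 1. The log2 difference was -0.91 ± 0.29 (limma adjusted p = 0.294; 95% interval -1.68 to -0.14), with -0.39 in pair 1 and -1.43 in pair 2. Unblocked, the Atf3 difference was 0.39 without mock 2, -0.13 without coculture 1, -1.69 without coculture 2 and -2.21 without mock 1. JDP2 and ATF3 are close relatives, and within a library the ratio of Jdp2 to Atf3 FPKM went from 4.91 to 35.9 in pair 1 and from 0.663 to 8.51 in pair 2.

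**Figure D2:**
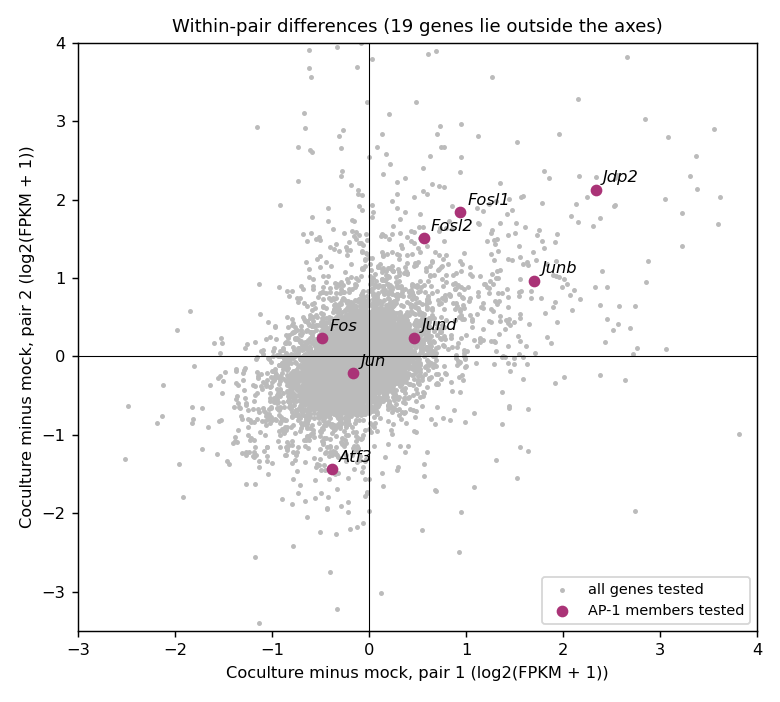
Coculture minus mock in pair 1 (horizontal) against pair 2 (vertical), both on the log2(FPKM + 1) scale, for all 10202 tested genes (grey; 19 lie outside the axes) and the 8 tested members (purple). Jdp2 lies at 2.33 and 2.12, and Junb, Fosl1, Fosl2 and Jund lie in the same upper right part, nearer to 0.

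The 10 genes summed to 208 FPKM in mock 1 and 496 FPKM in coculture 1, and to 220.3 and 383 FPKM in the libraries of pair 2. In mock 1 the order below Junb was Fos, Jund, Jdp2, Jun and Fosl2, and in mock 2 it was Jund, Atf3, Fos, Jdp2 and Jun. The places of Fos, Jund and Jdp2 in mock thus differed between libraries. In both coculture libraries Junb and Jdp2 were the most abundant and Jund came after them. Jdp2 took 11.1% and 10.1% of the sum in mock and 24.1% and 26.2% in coculture. Its level exceeded that of 64.0% and 62.9% of tested genes in mock and of 94.3% and 93.3% in coculture.

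Shares of the other genes moved less evenly. Junb took 37.7% and 28.9% of the sum in mock and 51.7% and 32.7% in coculture. Fos took 16.5% and 11.9% in mock and 4.88% and 8.04% in coculture, and Jun took 8.81% and 9.16% in mock and 3.26% and 4.50% in coculture. Jund took 11.9% and 17.2% in mock and 6.93% and 11.7% in coculture, and Atf3 2.25% and 15.2% against 0.672% and 3.08%. The FPKM of Jund were higher in coculture in both pairs, so a smaller share is not a lower level. The FOS genes as a group held 28.3% and 19.5% in mock and 13.3% and 21.7% in coculture, so their share went in opposite directions in the pairs. The JUN genes held 58.4% and 55.2% in mock and 61.9% and 48.9% in coculture, also in opposite directions. The ratio of Jdp2 to Fos went from 0.669 to 4.95 in pair 1 and from 0.852 to 3.26 in pair 2.

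**Figure D3:**
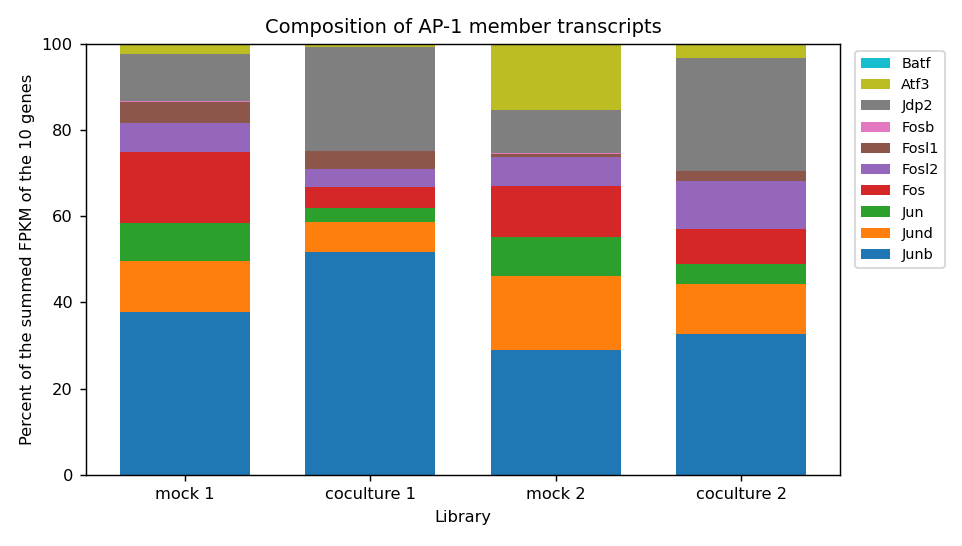
Percent of the summed FPKM of the 10 genes held by each gene in the 4 libraries. The Jdp2 segment grows from 11.1% to 24.1% in pair 1 and from 10.1% to 26.2% in pair 2. The Fos, Jun, Jund, Atf3 and Fosb segments shrink in both pairs, although the FPKM of Jund were higher in coculture in both.

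Other genes of the pathway are given by lists chosen with earlier results of these data known. Of 33 other bZIP genes, 26 were tested and 0 were called in either direction. At limma's unadjusted p under 0.05, 4 were higher and 5 were lower (median -0.0024), against 5.26% and 9.45% of all tested genes. Cebpd, a CCAAT enhancer binding protein gene of the acute phase response, had 8.27 and 8.47 FPKM in the mock libraries, and 14.7 and 16.7 FPKM beside CT26 cells (0.83 ± 0.14, limma adjusted p = 0.150). Crem, a cyclic AMP responsive modulator gene, differed by 0.91 ± 0.21 (0.210). Maff, a small MAF gene, differed by 2.51 and 0.34 in the pairs.

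Of 28 kinases that signal to AP-1, 22 were tested and 0 were called. At limma's unadjusted p under 0.05, 0 were higher and 3 were lower, against 5.26% and 9.45% of all tested genes. The median was -0.07, the same as over all genes. Map3k1, an upstream kinase of the JNK pathway, had 8.13 and 18.4 FPKM in the mock libraries, and 4.39 and 12.1 FPKM beside CT26 cells (-0.66 ± 0.15, limma adjusted p = 0.210). Map3k5, a stress-activated kinase gene, differed by -0.51 ± 0.17, Rps6ka5, the gene of a nuclear kinase downstream of MAP kinases, by -0.55 ± 0.22, and Mapk11, which encodes p38 beta, by 0.66 ± 0.26 (limma adjusted p = 0.306, 0.366 and 0.357). Serum response factor and its partners, which act on the Fos promoter, had 6 tested members and 0 called (median -0.02). By limma's unadjusted p under 0.05, 0 were higher and 1 was lower, against 5.26% and 9.45% of all tested genes. That 1 was Mrtfa, an actin-regulated coactivator gene, at -0.79 ± 0.15 (limma adjusted p = 0.182), while Elk1, Elk3 and Mrtfb differed by 0.32, 0.20 and -0.20.

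Of 14 genes whose products act on AP-1, 13 were tested and 0 were called (median 0.07, or -0.02 with the untested member). At limma's unadjusted p under 0.05, 1 was higher and 3 were lower, against 5.26% and 9.45% of all tested genes. Nr3c1, the glucocorticoid receptor gene, whose product restrains AP-1, differed by -0.59 ± 0.15, the coactivator gene Ep300 by -0.42 ± 0.13, the SUMO ligase gene Pias1 by -0.39 ± 0.13 and the stress response gene Nupr1 by 0.59 ± 0.18, with limma adjusted p from 0.238 to 0.320.

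Textbook AP-1 target genes stood mostly higher: of 22, 17 were tested, of which Il1b was called higher and 0 were called lower. In both pairs 14 were higher and 2 lower, and 1 was of opposite sign, against 21.5%, 42.2% and 36.4% of all tested genes. The list median was 1.53, or 1.61 in pair 1 and 1.21 in pair 2. At least 2-fold higher in both pairs were 8, against 1.02% of all tested genes. Of the 17, 5 (Il1b, Ccl2, Timp1, Csf2 and Lif) were under 1 FPKM in both mock libraries, so the filter took them for their coculture level. The counts over the 17 include these 5, whose rise the filter favoured. Over all 22 the median was 1.09. Most of these genes also respond to NF-kappaB, and the list holds genes already known to differ in these libraries, so it is no independent evidence. Lif, which encodes leukaemia inhibitory factor, had 0.0645 and a listed 0 FPKM in the mock libraries, and 36.3 and 4.41 FPKM beside CT26 cells (limma adjusted p = 0.159). Ptgs2 and Tnf differed by 4.63 ± 0.54 and 3.58 ± 0.26 (limma adjusted p = 0.0907 and 0.0541), and Il1b, the interleukin-1 beta gene, rose by 6.66 ± 0.32 (0.0270).

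Osteoclast genes, which c-FOS, NFATc1 and JDP2 are known to act on, had 8 of 12 members tested and 0 called. By limma's unadjusted p under 0.05, 1 was higher and 1 was lower, against 5.26% and 9.45% of all tested genes. The median was 0.38 (0.16 over all 12), or 0.02 in pair 1 and 0.36 in pair 2. Acp5, which encodes tartrate-resistant acid phosphatase, went from 3.34 to 3.43 FPKM in pair 1, but from 1.65 to 35.6 FPKM within pair 2. Nfatc1, the master osteoclast factor gene, differed by 0.01 and 1.10 in the pairs, and Car2, a carbonic anhydrase gene, by 0.43 and 1.47. Dcstamp, a cell fusion gene, differed by 1.14 and 0.19. The Jdp2 difference was of like size in both pairs, while those of these 4 genes were mostly in 1 pair.

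**Figure D4:**
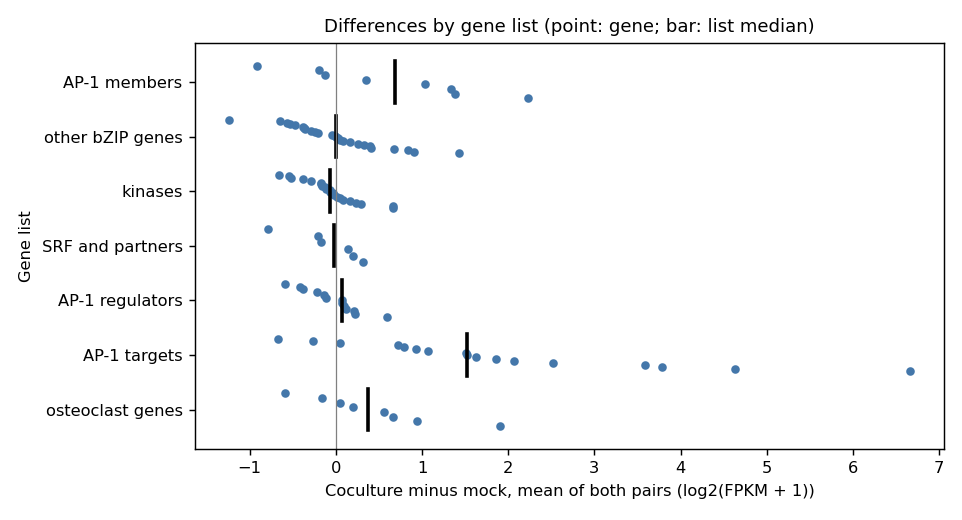
Coculture minus mock (mean of both pairs, log2(FPKM + 1) scale) for each tested gene of the AP-1 members and 6 related lists; the black bar is the list median. The AP-1 target list has the highest median, 1.53, but 5 of its 17 tested genes passed the filter only through coculture. Over all 22 of its genes the median was 1.09, and the list was chosen with earlier results of these data known. The other bZIP genes, kinases, SRF partners and regulators have medians around 0.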

How the data were processed

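RNA was sequenced from 2 mock and 2 coculture libraries made with a Vazyme mRNA-seq kit, per the labels' protocols. The authors deposited FPKM in 2 tables, 1 per replicate number. Trim Galore, Subread and featureCounts were used, per the submitters' processing notes, which name the build hg38, a human build, although the symbols are mouse symbols; the sources used here give no versions, gene lengths or totals.

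Unnamed rows (23) and repeated names (106 names on 287 rows) of the first table were left out; none of the 10 genes was among them. The FPKM were used as deposited, as log2(FPKM + 1), which understates the change of low genes. Genes reaching 1 FPKM in 2 or more libraries (10202 of 22554) were tested in limma 3.58.1 (R 4.3.3; trended prior variance, two-sided, Benjamini-Hochberg threshold 0.05). The pair is a block because only differences within a table compare, so levels set across the tables may carry a difference in normalization. Residual degrees of freedom were 1, and prior ones 3.43; libraries of a pair deviated together (correlation 0.76). The script was tested on simulated data. Depth was estimated from the spacing of low FPKM values times GENCODE M21 exon lengths. Only a range of spacings set beforehand was searched, so the estimates were bounded in advance. At the spacing chosen, 28.8 to 30.7% of low values lay within 0.05 of a whole read, so read numbers are approximate. Promoter sequences are from RefSeq (GRCm38.p6).

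The genes and lists were chosen with earlier results of these data known. Named were all 10 genes, up to 4 genes per list (those differing most, with like sign in the 2 pairs and a mean of at least 2 FPKM), the 5 genes nearest to Jdp2, and the neighbours of Fos, Jdp2 and Batf. A list gene that this rule names is not reported here. Alternatives covered the pseudocount, the filter, the scaling, the block, the variance trend and leaving out each library.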

Additional observations from a re-analysis of the deposited data

How the results depend on the processing

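The number of members called higher was 1 (Jdp2) with pseudocounts of 0.1 and 0.5, with at least 5 FPKM, and after quantile normalization, median centring or rescaling to a common total. It was 0 with no filter on low values, with no replicate block, with no trended variance, and 0 to 0 without any single library, while 0 members were called lower in any setting. Over all genes, 13 were called higher; the number was 22 with a pseudocount of 0.1, 0 with no filter, 25 with at least 5 FPKM, 24 after rescaling, 85 after median centring, 43 after quantile normalization, 1 with no replicate block, 1 with no trended variance and 0 to 0 without a library. Genes called lower numbered 0, but 1 with at least 5 FPKM, 1 after rescaling, 18 after centring and 3 after quantile normalization. The cause of these shifts was not tested; fits without a library drop the pair block, compare across tables and assume that the lone sample varies like the others. Changing only the filter, the block or the variance trend cannot move a difference, in size or direction. Without the replicate block the Jdp2 difference was thus the same, 2.23, at a limma adjusted p of 0.277. Of 104 member values under an alternative, 94 kept direction and side of the threshold, 7 (all Jdp2) lost the call, and 3 changed sign. Only Jdp2 was called to begin with, so for the other members keeping the side means only staying uncalled. Fos was 0.062 without mock 1 and 0.039 without coculture 1 (range -0.32 to 0.062), and Atf3 was 0.39 without mock 2 (range -2.21 to 0.39). With 2 pairs and no counts in the files, a difference short of the threshold is not shown to be absent.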
